A study of Mus musculus with 10 samples.

Results

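The genes described are 10 mouse genes of the response to the transcription cofactor YAP and to mechanical load, looked up by symbol in a table of heart RNA levels. They are Ankrd1, Ccn1, Ccn2, Amotl2, Lats2, Yap1, Wwtr1, Tead1, Tead4 and Ajuba. Of the 10 genes, 9 were found among the 11790 genes of the table, and all 9 were among the 9987 genes tested, whose mean was at least 1 FPKM (fragments counted per kilobase of exon, scaled by depth). Tead4 is not analysed here. The list was chosen with results of the comparison below known, among them the lower level of Ankrd1. The differences of the 9 genes are therefore given as values with no p-value. Which of them passed in the fit across all genes is given as a description only.

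The RNA came from heart tissue of 10 randomly fed mice of 10 to 11 weeks. In 5 mice, labelled A-PDK1KO, the kinase PDK1 (3-phosphoinositide-dependent kinase 1, gene Pdpk1) was deleted in adipocytes, and the Cre line that drives the deletion is not named in the labels. The other 5, PDK1 flox/flox mice, carry the floxed gene and served as controls. The title presents the A-PDK1KO mouse as a model of diabetic heart disease. The label places the deletion in fat cells, not in the heart cells measured here. Pdpk1 itself stood at 2.73 to 4.04 FPKM in A-PDK1KO hearts and at 3.14 to 3.77 FPKM in control hearts. Whether some heart cells lost the gene was not tested. The labels do not say whether the mice shared litters, and p-values measure the spread between these 10 hearts.

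In the Hippo pathway a chain of kinases ending in LATS1 and LATS2 phosphorylates the related cofactors YAP (gene Yap1) and TAZ (gene Wwtr1), which are then kept out of the nucleus. When the kinases are less active, or when cells are stretched or grow on a stiff matrix, YAP and TAZ enter the nucleus and bind TEAD proteins, which hold the DNA. In cardiomyocytes Ankrd1, Ccn1 and Ccn2 are among the genes most used as a readout of YAP and TEAD, and Ankrd1 is also a known gene of pressure and volume load.

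The DNA just before the RefSeq starts of the genes was read first, because it shows where a TEAD protein could bind. TEAD proteins recognise the letters GGAATG, which form part of the longer M-CAT element of muscle genes. Only these letters were searched, so a match is not necessarily a full M-CAT element. These letters were searched on both strands in the 250 bases before each RefSeq transcript start (build GRCm38.p6). Of the 9 measured genes, 7 had such an entry: Ankrd1, Ccn1, Amotl2, Ajuba, Lats2, Yap1 and Wwtr1. In the sequences below the capitals mark the TEAD letters, GGAATG on the gene's strand or CATTCC where they are read on the opposite strand. The Ccn1 and Ajuba windows are given whole, since these genes had higher levels in A-PDK1KO hearts. The others are given as the matched site with its flanks, and are shown for comparison. In the GENCODE vM21 annotation, longer transcripts of Ankrd1 and Amotl2 begin before the RefSeq start, and the matches shown for these genes lie inside an exon of the gene itself. The Yap1 window overlaps an exon of the predicted gene Gm45494, and the window of the second Wwtr1 start overlaps an exon of Wwtr1, outside its match.
Ankrd1, distal match, chr19:36120037-36120066, minus strand: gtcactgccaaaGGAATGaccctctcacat
Ankrd1, proximal match, chr19:36119950-36119979, minus strand: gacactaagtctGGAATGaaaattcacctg
Ccn1, chr3:145649986-145650235, minus strand: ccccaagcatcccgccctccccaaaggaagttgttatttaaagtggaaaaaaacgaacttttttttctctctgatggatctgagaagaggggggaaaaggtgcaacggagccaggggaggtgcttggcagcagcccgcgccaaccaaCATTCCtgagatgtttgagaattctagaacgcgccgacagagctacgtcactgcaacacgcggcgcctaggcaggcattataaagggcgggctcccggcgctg
Ajuba, chr14:54577662-54577911, minus strand: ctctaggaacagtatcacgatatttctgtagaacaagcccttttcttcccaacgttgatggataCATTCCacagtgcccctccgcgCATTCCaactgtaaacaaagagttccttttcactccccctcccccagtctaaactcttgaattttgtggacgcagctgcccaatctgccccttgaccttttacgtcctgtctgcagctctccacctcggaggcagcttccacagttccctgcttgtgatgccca
Amotl2, chr9:102717727-102717756, plus strand: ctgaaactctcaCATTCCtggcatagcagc
Yap1, chr9:8004720-8004749, minus strand: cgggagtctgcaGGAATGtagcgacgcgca
Wwtr1, chr3:57576029-57576058, minus strand: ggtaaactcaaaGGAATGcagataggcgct

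At least 1 TEAD match was found upstream of 6 of the 7 genes, and 2 matches upstream of Ankrd1 and of Ajuba. The first bases of the Ankrd1 matches lie at -210 and -123 from the transcript start, and those of the Ajuba matches at -186 and -164. The single matches begin at -103 for Ccn1, at -65 for Amotl2, at -141 for Yap1 and at -136 for Wwtr1, whose second listed start shares the same site. In the 2 Lats2 windows these letters did not occur. Counted by window, 7 of the 9 windows of these genes held a match, the 2 Wwtr1 windows sharing 1 site. For comparison, 12.6% of 32851 RefSeq promoter windows of the same length held at least 1 match. So did 10.8% of the 10546 windows of genes in the table, and 1.02% of all windows held 2 or more. The genes were listed for their link to YAP, so the share is a description, and a match shows letters, not binding. The AP-1 letters TGANTCA (6.75% of all windows) and the CArG box, the element of serum response factor (1.47%), occurred upstream of 0 of the 7 genes, so no TEAD match overlapped either of them.

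**Figure D1:**
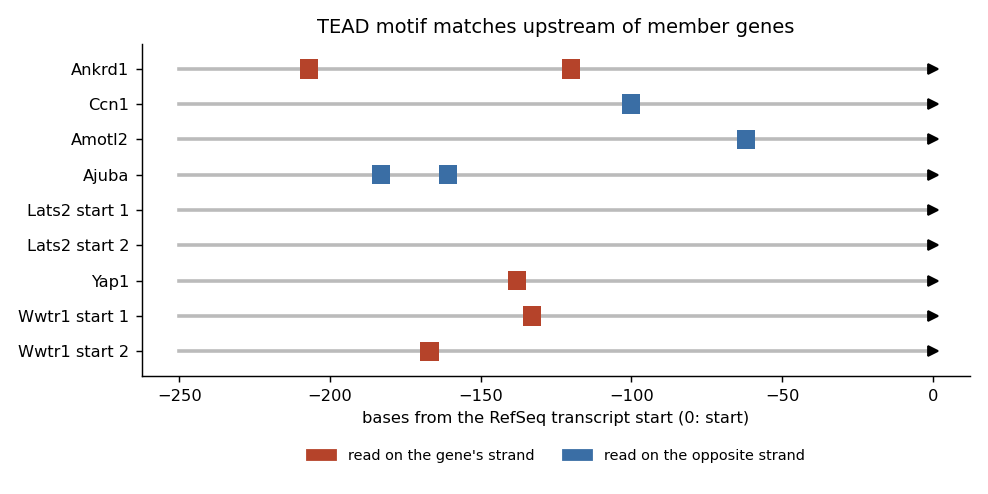
Position of TEAD letters in the 250 bases upstream of each RefSeq start of 7 genes, in bases from the start. Red boxes were read on the gene's strand and blue boxes on the opposite strand; Ankrd1 and Ajuba have 2 boxes and the 2 Lats2 windows have none.

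The hearts were checked before the genes were compared. Each heart gave 9249254 to 11384423 counted reads, and mitochondrial transcripts took 32.7% to 41.5% of the reads. Summed cardiomyocyte markers (Myh6, Tnnt2, Tnni3, Actc1, Myl2 and Myl3) stood at 13440 to 15310 FPKM in A-PDK1KO hearts and at 14290 to 16950 FPKM in control hearts. The groups overlapped also for summed fibroblast markers (109 to 135 FPKM in A-PDK1KO and 114 to 139 FPKM in control hearts) and for endothelial markers (84.9 to 99.0 FPKM in A-PDK1KO and 77.4 to 92.3 FPKM in control hearts). Sums of the smooth muscle, macrophage, atrial and erythroid markers overlapped as well, and the adipocyte and mesothelial markers looked for are not analysed here. The erythroid sum was 68.6 to 227.7 FPKM in A-PDK1KO and 27.9 to 1391 FPKM in control hearts, highest in control 1. The atrial sum (Myl7, Myl4, Sln and Nppa) was 184.5 to 267.6 FPKM in A-PDK1KO and 214.3 to 579.4 FPKM in control hearts. Most of it was the natriuretic peptide gene Nppa, with means of 205.8 of 227.2 FPKM in A-PDK1KO and 374.7 of 414.6 FPKM in control hearts. In control 1 Nppa was at 486.5 FPKM and Myl7 at 0 FPKM, so a high sum need not mean atrial tissue. Atrial tissue differed between hearts: the atrial light chain Myl7 was at 34.98 and 47.62 FPKM in A-PDK1KO 3 and 5 and at 85.92 and 71.35 FPKM in control 2 and 5, and under 1 FPKM in the other 6 hearts.

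Of the 9 genes, 1 target was lower in every A-PDK1KO heart than in any control heart, 1 target and the LATS inhibitor Ajuba were higher in every A-PDK1KO heart, and the other 6 genes overlapped between the genotypes. Ankrd1 stood at 211 ± 48.1 FPKM in A-PDK1KO hearts and at 325.5 ± 19.99 FPKM in control hearts, 1.54-fold lower (mean ± SD, n = 5 each). Ccn1 stood at 35.2 ± 7.62 FPKM in A-PDK1KO hearts and at 22.9 ± 2.97 FPKM in control hearts, 1.54-fold higher. The genes for YAP, TAZ and TEAD1 differed by at most 1.09-fold. In these tissue samples fewer cells of a type and less RNA per cell cannot be told apart.

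Ankrd1 encodes cardiac ankyrin repeat protein, which binds titin in the sarcomere and also acts in the nucleus. Its gene (ENSMUSG00000024803) lies on the minus strand of chromosome 19, 36111961 to 36120099 in mm10 (GENCODE vM21, as for the genes below). Its level was 139.9, 251.3, 205.3, 259.7 and 198.6 FPKM in A-PDK1KO 1 to 5 and 337.6, 336.1, 309.5, 345.2 and 299.1 FPKM in control 1 to 5. Every A-PDK1KO heart lay below every control heart, and A-PDK1KO 1 was the lowest of all 10. On the log2(FPKM + 1) scale this was -0.65 ± 0.14 (SE), and the differences below are on the same scale. The coefficient of variation was 22.8% among A-PDK1KO hearts and 6.14% among control hearts. Between 3871 and 9834 reads lay behind each value, so counting error is small beside this spread. By level Ankrd1 ranked 196 among the 9987 genes in A-PDK1KO hearts and 127 in control hearts.

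Ccn1 (ENSMUSG00000028195), formerly Cyr61, encodes a secreted matrix protein that binds integrins. It lies on the minus strand of chromosome 3, 145646976 to 145649981. Its level was 48.03, 35.02, 33.58, 28.28 and 31.08 FPKM in A-PDK1KO 1 to 5 and 18.37, 26.38, 22.79, 22.55 and 24.46 FPKM in control 1 to 5. Every A-PDK1KO heart lay above every control heart, with A-PDK1KO 1 the highest of all 10. The difference was +0.58 ± 0.13 on the log2(FPKM + 1) scale, from 343 to 930 reads per heart.

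A-PDK1KO 1 thus had both the lowest Ankrd1 and the highest Ccn1, and it also had the largest mitochondrial share, 41.5%. Without it the difference was -0.51 for Ankrd1 and +0.47 for Ccn1. Leaving out a heart could not reverse either difference, since the groups do not overlap. In the 6 hearts with Myl7 under 10 FPKM, a selection made after seeing the data, the difference was -0.66 for Ankrd1 and +0.75 for Ccn1. With Myl7 as a covariate it was -0.66 for Ankrd1 and +0.59 for Ccn1.

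Ccn2 (chromosome 10, 24595442 to 24598683) encodes connective tissue growth factor, the close relative of Ccn1. Its level was 17.31, 23.99, 14.93, 16.61 and 15.29 FPKM in A-PDK1KO 1 to 5 and 14.10, 14.65, 17.87, 17.54 and 19.54 FPKM in control 1 to 5. The groups overlapped, and A-PDK1KO 2 was the highest heart. The difference was +0.06 ± 0.13, smaller than its standard error, and Ccn1 and Ccn2 gave unlike values in the same hearts. Without A-PDK1KO 2 the difference of Ccn2 turned to -0.05.

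Amotl2 (chromosome 9, 102716672 to 102733418) encodes an angiomotin family protein that binds YAP and holds it at junctions, and is itself a YAP target. Its level was 6.14, 6.97, 7.41, 10.10 and 8.17 FPKM in A-PDK1KO 1 to 5 and 6.40, 5.29, 7.13, 6.99 and 6.04 FPKM in control 1 to 5. A-PDK1KO 3, 4 and 5 were above every control heart and A-PDK1KO 1 and 2 were within the control range. The difference was +0.24 ± 0.12.

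Ajuba (chromosome 14, 54567472 to 54577558) encodes a LIM protein that binds and inhibits LATS kinases at junctions under tension. Its level was 1.602, 1.97, 1.94, 1.69 and 2.73 FPKM in A-PDK1KO 1 to 5 and 1.22, 1.569, 1.43, 1.33 and 1.51 FPKM in control 1 to 5. Every A-PDK1KO heart was above every control heart, by a narrow margin between 1.602 FPKM in A-PDK1KO 1 and 1.569 FPKM in control 2. The mean was 1.98 ± 0.44 FPKM in A-PDK1KO hearts and 1.41 ± 0.14 FPKM in control hearts, 1.41-fold higher, with a difference of +0.30 ± 0.10. Only 41 to 103 reads lay behind each value, and Ajuba was the lowest of the 9 genes.

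Lats2 (chromosome 14, 57689662 to 57758388) encodes the kinase that phosphorylates YAP and TAZ, and is also a YAP target. Its level was 1.80, 1.88, 2.08, 2.28 and 2.01 FPKM in A-PDK1KO 1 to 5 and 2.28, 1.91, 2.27, 2.54 and 2.06 FPKM in control 1 to 5. The groups overlapped and the difference was -0.09 ± 0.08.

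The groups overlapped for the cofactor genes and for their TEAD partner. Yap1 (chromosome 9, 7931999 to 8004596) stood at 9.81, 11.89, 11.59, 11.85 and 11.47 FPKM in A-PDK1KO 1 to 5 and at 10.49, 9.24, 10.34, 12.74 and 9.19 FPKM in control 1 to 5. Both the highest and the lowest Yap1 level were in control hearts, and the difference was +0.12 ± 0.09. Wwtr1 (chromosome 3, 57455649 to 57575910) stood at 14.29, 16.51, 14.32, 15.15 and 13.60 FPKM in A-PDK1KO 1 to 5 and at 15.56, 14.55, 15.37, 14.46 and 13.77 FPKM in control 1 to 5. Its means were 14.8 ± 1.12 FPKM in A-PDK1KO hearts and 14.7 ± 0.73 FPKM in control hearts, with a difference of 0.00 ± 0.07. Tead1 (chromosome 7, 112679318 to 112906807) stood at 7.68, 10.87, 8.97, 10.39 and 9.78 FPKM in A-PDK1KO 1 to 5 and at 9.73, 8.85, 10.27, 10.41 and 7.99 FPKM in control 1 to 5. Its A-PDK1KO hearts covered the whole control range, and the difference was +0.01 ± 0.10. RNA levels do not show where YAP and TAZ proteins are in the cell or whether they are phosphorylated. Among the other TEAD genes, chosen after their values were seen, Tead2 averaged 0.67 ± 0.16 FPKM in A-PDK1KO and 0.89 ± 0.15 FPKM in control hearts, and Tead3 0.85 ± 0.26 FPKM in A-PDK1KO and 0.77 ± 0.18 FPKM in control hearts, against 9.54 ± 1.26 FPKM in A-PDK1KO and 9.45 ± 1.02 FPKM in control hearts for Tead1.

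**Figure D2:**
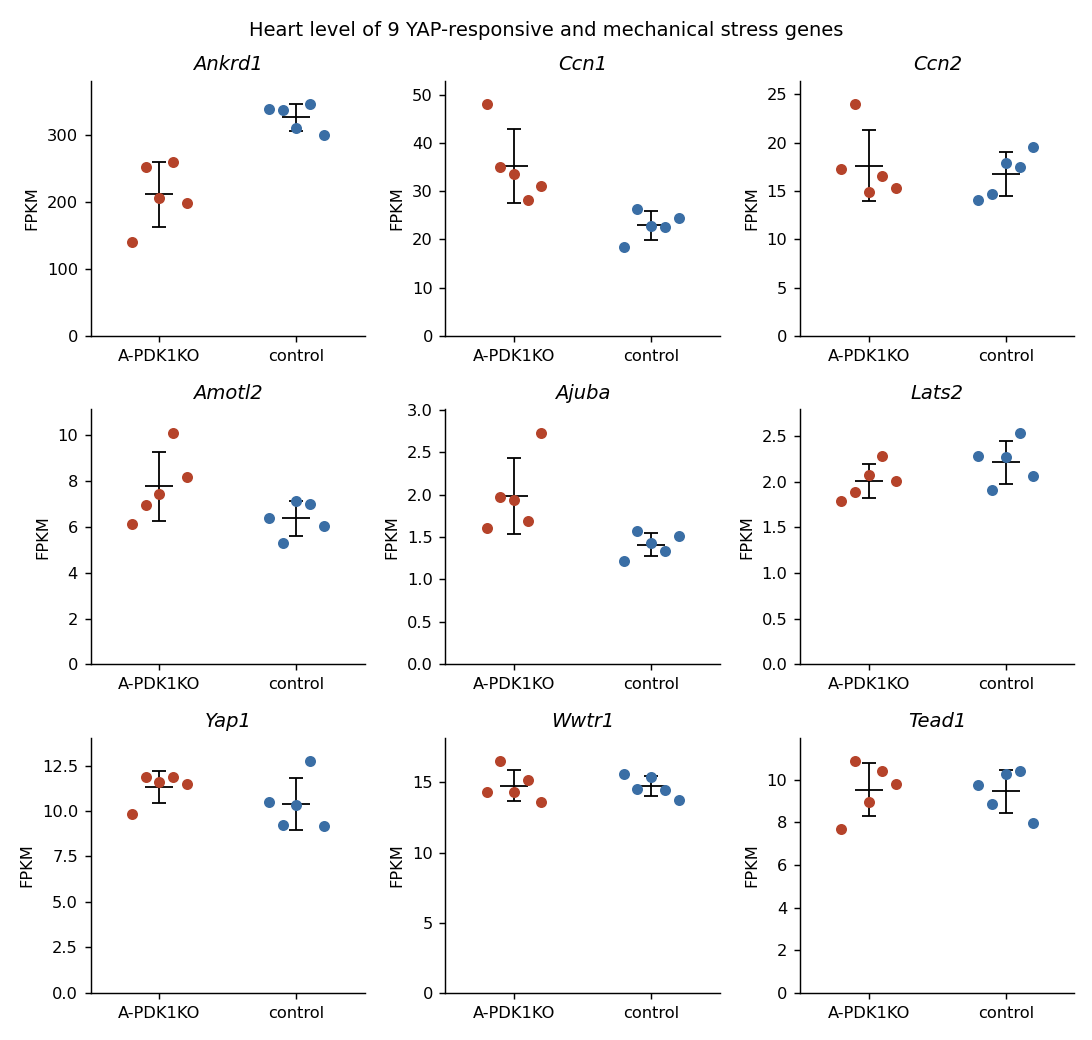
FPKM of the 9 genes, 1 point per heart, A-PDK1KO in red on the left and control in blue on the right, with mean and SD in black (n = 5 each). Ankrd1 lies lower, and Ccn1 and Ajuba higher, in all A-PDK1KO hearts, while the other 6 genes overlap between the genotypes.

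In the fit across all genes (limma, Benjamini-Hochberg adjusted p under 0.05) 2.08% of the 9987 genes passed, and 2 of the 9 genes, Ankrd1 lower and Ccn1 higher. Groups did not overlap for 4.96% of all genes and for 3 of the 9. The list was chosen on this contrast, so nothing is read from these counts. Of the 9 differences, 7 were above 0, among them the near-zero ones of Wwtr1 and Tead1. The median was +0.06 against +0.02 over all genes tested. The call for Ankrd1 was lost on the TPM scale, in the 6 hearts with Myl7 under 10 FPKM and without A-PDK1KO 3, A-PDK1KO 5 or any 1 of the 5 control hearts. The call for Ccn1 was lost on the TPM scale, with median-of-ratios scaling, quantile normalization or the replicate block, in those 6 hearts, and without any 1 heart other than A-PDK1KO 4 or control 2. Fewer genes passed across the whole table as well in each of the fits with a heart left out. Over all alternatives the difference lay between -0.74 and -0.51 for Ankrd1 and between +0.47 and +0.75 for Ccn1.

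Ratios of genes within 1 heart do not depend on how libraries are scaled. The ratio of Ankrd1 to Ccn1 was 2.91, 7.18, 6.12, 9.19 and 6.39 in A-PDK1KO 1 to 5 and 18.4, 12.7, 13.6, 15.3 and 12.2 in control 1 to 5. The means were 6.36 ± 2.27 in A-PDK1KO and 14.5 ± 2.49 in control hearts. That the groups do not overlap follows from the levels of the 2 genes given above, and adds nothing to them. The ratio of Ccn1 to Ccn2 averaged 2.04 ± 0.51 in A-PDK1KO and 1.38 ± 0.23 in control hearts, and its groups overlapped. The ratio of Ajuba to Lats2 averaged 0.99 ± 0.23 in A-PDK1KO and 0.65 ± 0.13 in control hearts, and overlapped too. That of Wwtr1 to Yap1 averaged 1.31 ± 0.11 in A-PDK1KO and 1.44 ± 0.17 in control hearts, again with overlap. Ankrd1 was also set against Nppb, the gene of B-type natriuretic peptide and another gene of cardiac load. Their ratio was 0.70, 1.17, 2.52, 1.84 and 1.53 in A-PDK1KO 1 to 5 and 0.52, 0.67, 0.63, 0.68 and 0.53 in control 1 to 5. Both genes were lower in A-PDK1KO hearts, and in each of those hearts Ankrd1 was higher relative to Nppb than in any control heart. The margin was narrow, between 0.695 in A-PDK1KO 1 and 0.681 in control 4. The higher ratio follows from the larger fall of Nppb, 3.53-fold against 1.54-fold for Ankrd1, and adds nothing to the levels.

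**Figure D3:**
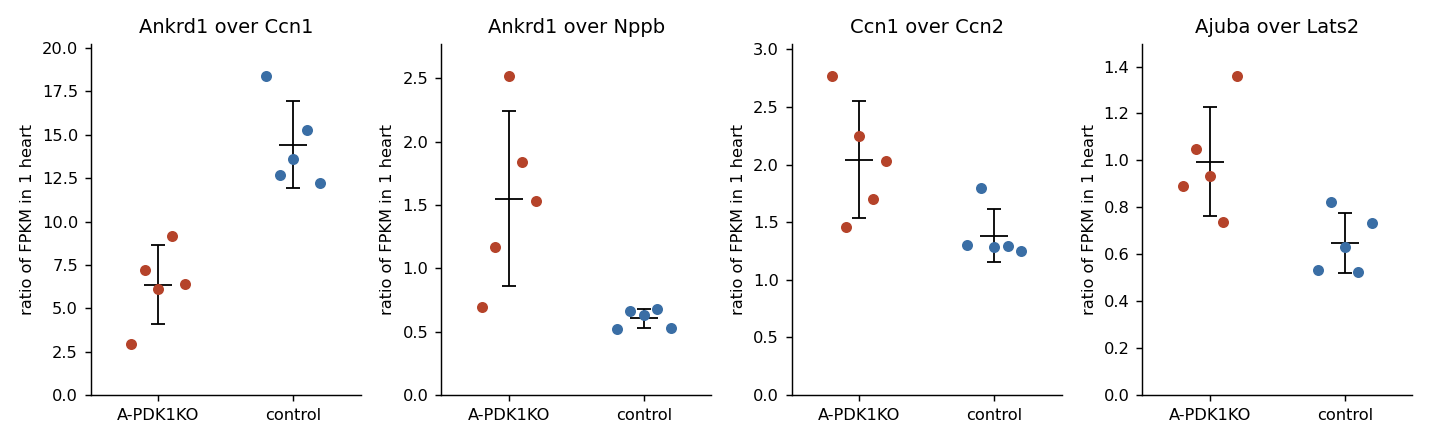
Ratio of FPKM between pairs of genes within each heart, A-PDK1KO in red on the left and control in blue on the right, with mean and SD in black (n = 5 each). Ankrd1 over Ccn1 and Ankrd1 over Nppb do not overlap between the genotypes, and the other pairs do.

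By mean FPKM the order was Ankrd1, Ccn1, Ccn2, Wwtr1, Yap1, Tead1, Amotl2, Lats2 and Ajuba. Ankrd1 was 9.23-fold above Ccn1, and Amotl2 3.35-fold above Lats2. Most neighbours kept their order in all 10 hearts. Ccn2 was above Wwtr1 in 9 of 10 hearts, and Lats2 above Ajuba in 3 of 5 A-PDK1KO and 5 of 5 control hearts. The coefficient of variation was larger among A-PDK1KO than among control hearts for 7 of the 9 genes, a difference that was not tested.

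Related genes that are not among the 9 were read from 6 lists, also chosen with earlier results known. Of 108 listed genes, 90 were tested: 1 rose and 2 fell in A-PDK1KO hearts (3.33%, against 2.08% of all genes tested). At an unadjusted p under 0.05 there were 15 of the 90, or 16.7%, close to the 15.6% of all genes tested (1554 of 9987). The median difference was +0.01, against +0.02 over all genes. Among 18 tested Hippo kinases and upstream regulators none passed (limma, 1 at an unadjusted p under 0.05; median +0.05). Slmap, a subunit of the phosphatase complex that counters the Hippo kinases, stood at 20.02 ± 1.53 FPKM in A-PDK1KO and 21.5 ± 1.78 FPKM in control hearts. Map4k4, a kinase that can activate LATS, stood at 13.0 ± 1.91 FPKM in A-PDK1KO and 11.9 ± 0.59 FPKM in control hearts.

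Among 14 tested partners of YAP and TAZ none passed (limma, 2 at an unadjusted p under 0.05; median +0.02). Ctnna1, the junction protein alpha-catenin, stood at 43.4 ± 4.69 FPKM in A-PDK1KO and 49.4 ± 5.89 FPKM in control hearts. Limd1, a LIM protein of the Ajuba family, stood at 13.3 ± 1.81 FPKM in A-PDK1KO and 10.9 ± 0.63 FPKM in control hearts (limma adjusted p = 0.169). As with Ajuba, its groups did not overlap. Wtip, the other family member, chosen after its values were seen, stood lower, at 2.40 ± 0.52 FPKM in A-PDK1KO and 3.08 ± 0.34 FPKM in control hearts, with overlap (limma adjusted p = 0.275).

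Other YAP target genes did not pass either (0 of 10 by limma, 1 at an unadjusted p under 0.05; median +0.02). Axl, a receptor tyrosine kinase, stood at 12.1 ± 1.41 FPKM in A-PDK1KO and 11.9 ± 1.70 FPKM in control hearts. Ccdc80, a matrix protein, stood at 11.0 ± 2.08 FPKM in A-PDK1KO and 11.9 ± 1.75 FPKM in control hearts. Nt5e, which encodes the ecto-enzyme CD73 and was chosen after its values were seen, was at 1.18 ± 0.20 FPKM in A-PDK1KO and 1.63 ± 0.15 FPKM in control hearts, without overlap (limma adjusted p = 0.148).

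MRTF and SRF act on another set of genes that respond to actin and tension. Of 14 tested genes 0 passed (limma, 3 at an unadjusted p under 0.05), and 3 differences were above 0, with a median of -0.10. Tpm1, a sarcomeric tropomyosin, stood at 1292 ± 35.2 FPKM in A-PDK1KO and 1283 ± 60.9 FPKM in control hearts. Fhl2, a LIM protein of the Z-disc, stood at 216 ± 17.2 FPKM in A-PDK1KO and 255 ± 30.8 FPKM in control hearts (limma adjusted p = 0.196), and it passed with median-of-ratios scaling.

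Among 15 tested stretch-responsive cardiomyocyte genes 1 passed, Nppb, which fell (limma, 5 at an unadjusted p under 0.05; median -0.04). Nppb was at 201.3, 215.2, 81.59, 141.3 and 129.9 FPKM in A-PDK1KO 1 to 5 and at 648.1, 504.3, 491.5, 506.8 and 563.1 FPKM in control 1 to 5. The difference was -1.89 ± 0.21 (limma adjusted p = 0.00429, lower in all 5 A-PDK1KO hearts). Other genes of the list were chosen after their values were seen. Csrp3, a Z-disc protein linked to stretch sensing, was at 342 ± 32.0 FPKM in A-PDK1KO and 351 ± 27.2 FPKM in control hearts. Synpo2l, an actin-binding Z-disc protein, was at 14.2 ± 2.33 FPKM in A-PDK1KO and 20.2 ± 3.59 FPKM in control hearts (limma adjusted p = 0.0807), and it passed with median-of-ratios scaling, scaling without mitochondrial and haemoglobin genes, limma voom and the replicate block. Nppa, the atrial natriuretic peptide gene, was at 206 ± 54.3 FPKM in A-PDK1KO and 375 ± 117 FPKM in control hearts, with overlap (limma adjusted p = 0.0908), and it passed with limma voom and without control 3. Myh7, the slow myosin heavy chain, had the opposite sign, at 52.4 ± 12.1 FPKM in A-PDK1KO and 35.3 ± 13.5 FPKM in control hearts (limma adjusted p = 0.229).

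Among 19 tested adhesion and mechanosensing genes 1 rose and 1 fell (limma, 3 at an unadjusted p under 0.05; median +0.04). Sun2 encodes a protein of the nuclear envelope that links the cytoskeleton to the lamina. It was at 23.26, 25.22, 26.85, 23.40 and 28.48 FPKM in A-PDK1KO 1 to 5 and at 16.16, 18.82, 18.10, 21.78 and 20.04 FPKM in control 1 to 5. It rose by 0.41 ± 0.09 (limma adjusted p = 0.0325, higher in all 5 A-PDK1KO hearts), and the call was lost on the TPM scale, in the 6 hearts with Myl7 under 10 FPKM, and without any 1 heart other than A-PDK1KO 1, A-PDK1KO 4 or control 4. Lims1, the integrin adaptor PINCH1, was at 13.8 ± 0.62 FPKM in A-PDK1KO and 16.6 ± 0.65 FPKM in control hearts, a difference of -0.25 ± 0.06 (limma adjusted p = 0.0487). The call for Lims1 was lost whenever 1 heart was left out, with a pseudocount of 0.1, with no filter, on the TPM scale, with quantile normalization, with the replicate block and in the 6 hearts with Myl7 under 10 FPKM. Its FPKM values did not give whole reads, so it was not tested by limma voom. Rhoa, the small GTPase of actin tension, was chosen after its values were seen. It was at 25.8 ± 0.63 FPKM in A-PDK1KO and 27.8 ± 1.89 FPKM in control hearts (limma adjusted p = 0.448). Its groups did not overlap, by a narrow margin between 26.51 FPKM in the highest A-PDK1KO heart and 26.53 FPKM in the lowest control heart.

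**Figure D4:**
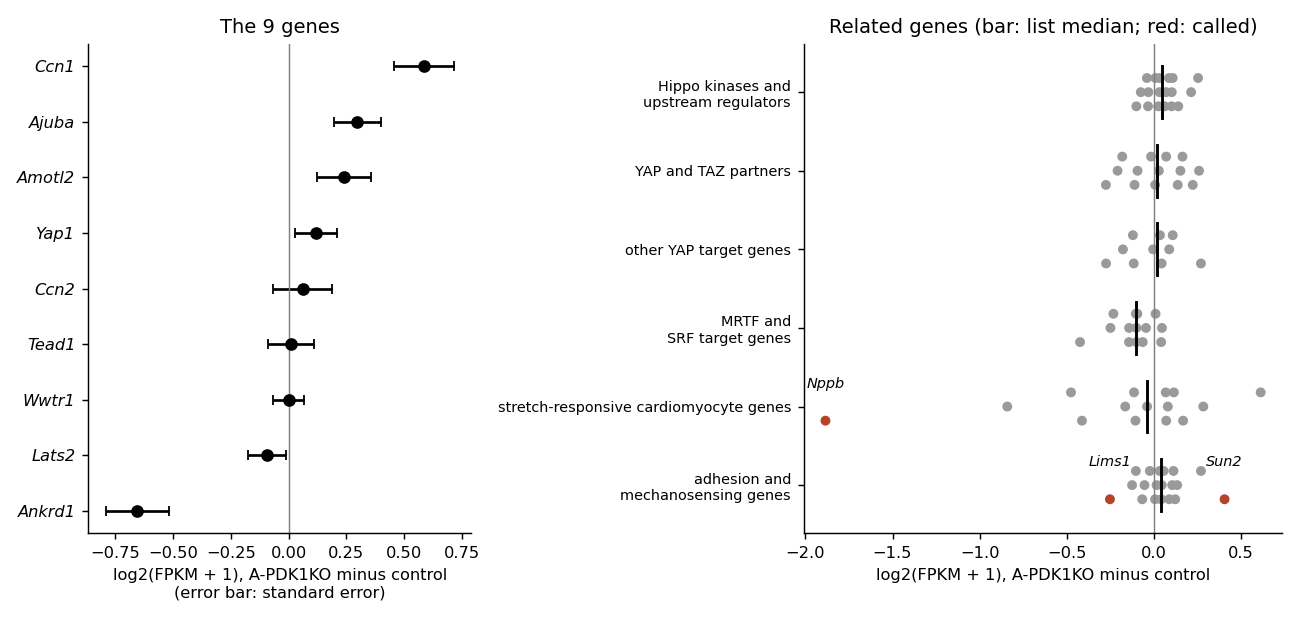
Difference in log2(FPKM + 1), A-PDK1KO minus control. Left, the 9 genes with their standard error; right, 90 related genes in 6 lists, with list medians as black bars and genes past the limma threshold in red (Nppb, Sun2 and Lims1).

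Variation between hearts of 1 genotype is independent of the difference between genotypes, so the 36 pairs of the 9 genes were compared after each group mean was removed. Pearson's r was positive for 22 pairs. By a permutation test within genotypes, 2 pairs passed at an adjusted p under 0.05 by Pearson's r and 2 by Spearman's rho, and 8 and 7 at an unadjusted p under 0.05. Yap1 and Tead1 passed by both (r = 0.80, adjusted permutation p = 0.0266; rho = 0.87, adjusted permutation p = 0.0176). Without the 2 hearts farthest from the Yap1 median, r was 0.81. With median-of-ratios scaling it was 0.58. The genes of every pair share the scaling factor of a heart, and its part in r was not tested. Amotl2 and Lats2 passed by Pearson's r alone (r = 0.87, adjusted permutation p = 0.0266; rho = 0.81, adjusted permutation p = 0.103), with r = 0.83 without 2 hearts and 0.87 with median-of-ratios scaling. Ankrd1 and Yap1 passed by rank alone (rho = 0.82, adjusted permutation p = 0.0245; r = 0.60, adjusted permutation p = 0.0656), with r = 0.41 without 2 hearts and 0.21 with median-of-ratios scaling.

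No pair that holds Ccn1 passed. Its r was -0.78 with Amotl2 (adjusted permutation p = 0.132), -0.53 with median-of-ratios scaling and -0.99 without A-PDK1KO 1 and control 1. With Lats2 it was -0.71 (adjusted permutation p = 0.132), -0.36 with that scaling and -0.85 without the same 2 hearts. With Ankrd1 it was -0.72 (adjusted permutation p = 0.19), and -0.84 with that scaling. Without A-PDK1KO 1 and A-PDK1KO 4 it was 0.06, so the value of -0.72 rests on those hearts. With Ccn2, r was 0.25. Ajuba was related to none of the others past the threshold, its values of r lying between -0.44 and 0.09. No pair passed by Pearson's r with median-of-ratios scaling or with Myl7 removed as well, and between 0 and 4 pairs passed when 1 heart was left out.

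**Figure D5:**
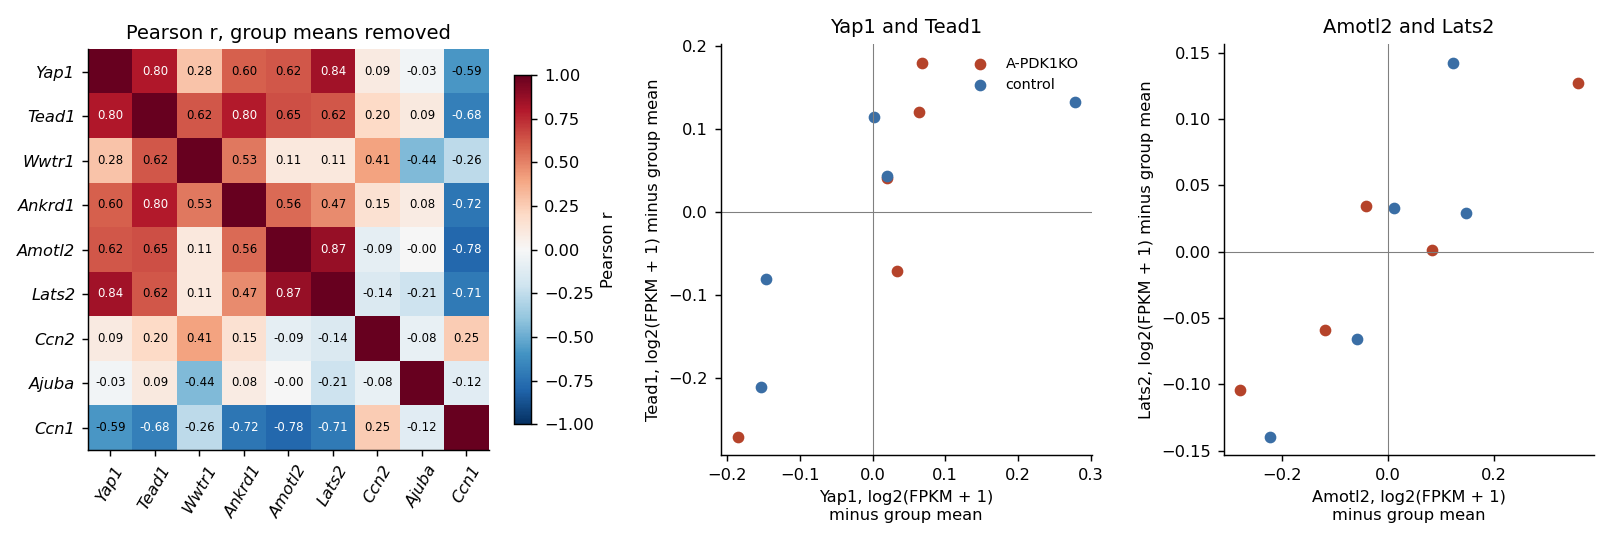
Left, Pearson's r of log2(FPKM + 1) between the 9 genes over 10 hearts after group means were removed, from blue (negative) to red (positive). Right, the hearts of Yap1 against Tead1 and of Amotl2 against Lats2 as deviations from the group mean, A-PDK1KO in red and control in blue, with r = 0.80 and r = 0.87.

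For each gene the 3 genes most like it over the 10 hearts were found by the same r among the 9987 tested. Since they are the highest of many, their values are a description with no test. Ankrd1 was most like Cnot6 (r = 0.96), Rnmt (0.96) and Sgms1 (0.95), and Ccn1 most like Gm44126 (r = 0.92), Slc19a2 (0.88) and Abtb1 (0.86). Ccn2 was most like Rhot2 (r = 0.97), Tinagl1 (0.96) and Vps9d1 (0.96). Amotl2 was most like Vgll4 (r = 0.96), a TEAD-binding protein on the list of YAP partners, then Rabggta (0.90) and Adgra2 (0.90). Lats2 was most like Prdm16 (r = 0.97), Inafm2 (0.97) and Irf2bp2 (0.96). Yap1 was most like Armc1 (r = 0.97), Atf6 (0.97) and Cog1 (0.97), and Wwtr1 most like Tfb2m (r = 0.98), Hsd11b1 (0.96) and Smpdl3a (0.96). Tead1 was most like Dnajc1 (r = 0.97), Zfp638 (0.96) and Esyt2 (0.95). Ajuba was most like Creb3l1 (r = 0.90), Ulk1 (0.89) and Rhou (0.87).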

How the data were processed

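Heart RNA of 5 A-PDK1KO and 5 control mice was compared, each heart taking its group from the genotype in its label. Per the labels' protocols, the paired-end reads were inspected with FastQC 0.11.7. The submitters' processing notes name HISAT2 2.1.0, Trimmomatic 0.38, featureCounts 1.6.3 and the mouse build mm10. Neither the annotation nor the strand setting is stated there, so reads of Yap1 and Ccn2 cannot be told apart from those of an antisense gene, nor those of Lats2 from an overlapping predicted gene. The authors deposited FPKM values for 11790 genes, each of which reaches 1.00 FPKM in some heart. A column of cluster numbers, 1 of no sample, was not used.

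Library sizes were found from the value of 1 read with exon lengths of GENCODE vM21, with which 98.2% of genes gave whole reads in every heart (tolerance 0.05 reads). They were 9249254 to 11384423 reads. The number of hearts and, for the low genes, the reads limit precision.

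FPKM values were tested here as log2(FPKM + 1), where the mean reached 1 FPKM, with limma 3.58.1 in R 4.3.3 (empirical Bayes trend, two-sided, no covariate) and Benjamini-Hochberg adjustment over all 9987 genes. Differences are on that scale, which understates those of low genes, and folds are ratios of mean FPKM. Co-variation used 100000 permutations within genotypes. The members and lists were chosen with earlier results of these data known. The text names every member found, up to 4 called genes of each list or, where none was called, the 2 of highest mean FPKM, and the 3 genes most like each member; other names are marked as chosen after their values were seen. The limma step was checked on simulated reads. Alternatives were a pseudocount of 0.1, a minimum mean of 5 FPKM, no filter, median-of-ratios factors, the TPM scale, scaling without mitochondrial and haemoglobin genes, quantile normalization, limma voom on recovered reads, Myl7 as a covariate, a replicate block, each heart left out and, added after seeing the data, the 6 hearts with Myl7 under 10 FPKM. Whether hearts of 1 number are paired is not stated in the labels. Promoters are RefSeq sequences of GRCm38.p6.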

Additional observations from a re-analysis of the deposited data

Results flagged for a closer look

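Single hearts stood apart from the other 4 of their genotype by Dixon's test in 5 of 44 groups checked, and chance alone gives about 1 in 20 groups. Ccn2 was at 23.99 FPKM in A-PDK1KO 2, and the rest of its group at 14.93 to 17.31 FPKM. Yap1 was at 9.811 FPKM in A-PDK1KO 1, and the rest of its group at 11.47 to 11.89 FPKM. The tropomyosin gene Tpm1 was at 1353 FPKM in A-PDK1KO 4, against 1263 to 1288 FPKM in the others. The LIM protein gene Fhl2 was at 308.1 FPKM in control 4, against 228.3 to 248 FPKM in the other control hearts. The GTPase gene Rhoa was at 31.12 FPKM in control 4, against 26.53 to 27.44 FPKM in the other control hearts. Control 4 also had the smallest mitochondrial share, 32.7%, and the highest Ankrd1, Lats2 and Yap1 of all hearts. The part of these values in each other was not tested.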

How the results depend on the processing

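The 208 genes called became 58 on the TPM scale, 316 when scaled without mitochondrial and haemoglobin genes, 57 to 150 when 1 heart was left out and 4 in the 6 hearts with Myl7 under 10 FPKM, with 1 higher and 3 lower. The share of calls that were higher in A-PDK1KO was 58.2%, and 70.6% without mitochondrial and haemoglobin genes in the scaling. The 2 members called became 0 on the TPM scale and in those 6 hearts, 1 with median-of-ratios scaling, with quantile normalization and with the replicate block, and 0 to 2 when 1 heart was left out. The 3 related genes called became 1 (Nppb) on the TPM scale and in those 6 hearts, 5 with median-of-ratios scaling (also Fhl2 and Synpo2l), and 1 to 2 when 1 heart was left out. The 2 co-varying pairs became 0 with median-of-ratios scaling and with Myl7 as a covariate, and 0 to 4 when 1 heart was left out. The cause of these changes was not tested, although fits with fewer hearts also have fewer values. Ankrd1, Ccn1 and Nppb kept their direction in all 21 alternatives, and Nppb also kept its call. Their groups do not overlap, so leaving hearts out could not change that direction. Ajuba lay between +0.21 and +0.46. The near-zero differences of Tead1 and Wwtr1 kept their sign in 14 of 21. The replicate block, which calls 153 genes, treats hearts of 1 number as paired. Their deviations over all tested genes correlated between -0.12 and 0.09. That cannot settle whether hearts of 1 number shared a litter or were handled together. Ajuba, with 41 to 103 reads per heart, is limited by depth as well as by the number of hearts.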
